A study of Mus musculus with 44 samples.

Results

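The strong CTCF peaks that were listed only in *Setdb1* KO ESCs are described here. They were selected on overlap and on pileup: a peak of the *Setdb1* KO list on an autosome, with no base shared with any peak of the WT list, and a summit pileup of 35 or more fragments. Of 58087 autosomal peaks in the *Setdb1* KO list, 1025 met this rule (1.76%, Wilson 95% interval 1.66 to 1.87%, counting error only). CTCF ChIP-seq was done in TT2 mouse ESCs (C57BL/6/CBA F1), a hybrid line grown in serum with LIF, as WT and as a *Setdb1* conditional KO in which 800 nM (Z)-4-hydroxytamoxifen (4-OHT) was given for 4 days and cells were collected on day 6. Whether the WT cells also received 4-OHT is not given in the sources used here, so the drug and the deletion cannot be told apart. The study's methods give the WT ESCs as a single clone (33#6). The lists held 59698 peaks in *Setdb1* KO and 44241 peaks in WT, each from 1 CTCF library, so no difference between the conditions has a replicate check and no p-value between them is given.

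CTCF is a zinc finger protein that binds a long, directional DNA motif and halts the cohesin complex, which anchors chromatin loops and domain borders. SETDB1 is a histone methyltransferase that deposits H3K9me3, a repressive mark found over many transposable elements in ESCs, usually after recruitment through KRAB zinc finger proteins and TRIM28. Mouse SINE B2 elements, short repeats that arose from tRNA genes, carry a sequence close to the CTCF motif and have spread it through rodent genomes. DNA methylation at a CpG within the motif can reduce CTCF binding.

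Sequences of selected members are printed as examples. They were chosen by motif, masking or family, so those features in them are not a result. Each window is the summit and 50 bp on either side of it in mm10 (GRCm38), read from the RefSeq assembly of that build, and is printed 5′ to 3′ on the strand of the CTCF motif, with the motif in capitals. The motif is a 15 bp matrix learned from the strongest shared peaks, called where its score passed the 99th percentile of control windows placed 1 kb leftwards. The first windows are the 5 members of highest pileup with a motif and a summit in soft-masked (repeat) sequence.
Sfi1 region, chr11:3197406-3197506, minus strand: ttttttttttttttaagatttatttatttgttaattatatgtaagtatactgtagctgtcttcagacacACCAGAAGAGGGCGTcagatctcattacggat
Dppa3 region, chr6:122650016-122650116, plus strand: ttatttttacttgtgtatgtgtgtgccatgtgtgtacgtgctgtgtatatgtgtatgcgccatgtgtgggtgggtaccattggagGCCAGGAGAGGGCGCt
Castor2 region, chr5:134078598-134078698, plus strand: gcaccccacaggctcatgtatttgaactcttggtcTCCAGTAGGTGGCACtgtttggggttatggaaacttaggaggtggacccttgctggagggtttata
Flt1 intron, chr5:147653611-147653711, minus strand: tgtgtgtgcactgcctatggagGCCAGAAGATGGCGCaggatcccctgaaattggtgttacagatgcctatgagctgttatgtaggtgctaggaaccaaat
Arhgap27 intron, chr11:103352390-103352490, minus strand: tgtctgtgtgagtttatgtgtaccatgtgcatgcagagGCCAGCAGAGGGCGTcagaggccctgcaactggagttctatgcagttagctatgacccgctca
The next windows are the 5 members of highest pileup with a motif and no masked base.
Dpep3 promoter, chr8:105979455-105979555, minus strand: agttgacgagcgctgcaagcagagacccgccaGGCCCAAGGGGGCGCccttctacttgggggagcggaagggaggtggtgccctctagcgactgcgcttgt
Caln1 intron, chr5:130730876-130730976, plus strand: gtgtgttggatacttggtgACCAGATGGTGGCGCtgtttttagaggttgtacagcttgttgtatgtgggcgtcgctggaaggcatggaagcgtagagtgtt
Rpl9-ps6 region, chr19:32441692-32441792, minus strand: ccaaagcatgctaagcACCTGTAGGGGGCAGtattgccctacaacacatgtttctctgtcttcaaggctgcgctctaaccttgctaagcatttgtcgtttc
Zfp706 region, chr15:37054749-37054849, plus strand: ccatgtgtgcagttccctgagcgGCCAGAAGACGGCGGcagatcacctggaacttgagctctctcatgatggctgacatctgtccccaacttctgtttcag
Vat1l intron, chr8:114312824-114312924, minus strand: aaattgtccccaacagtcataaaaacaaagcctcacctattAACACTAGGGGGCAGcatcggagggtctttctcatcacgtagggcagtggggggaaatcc
The last windows stand for families of related members. The first of them is the representative of the largest family, near *Mtus2*, the next is a member of the second family, and the last is the representative of the third family, where no motif was called and no base is in capitals.
Mtus2 region, chr5:147949269-147949369, plus strand: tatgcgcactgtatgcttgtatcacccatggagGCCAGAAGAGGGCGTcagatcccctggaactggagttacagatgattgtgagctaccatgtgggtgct
Rbm20 intron, chr19:53756656-53756756, minus strand: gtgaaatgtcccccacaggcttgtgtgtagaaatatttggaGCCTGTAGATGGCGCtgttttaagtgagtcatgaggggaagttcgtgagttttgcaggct
Zfp804b region, chr5:6645296-6645396, plus strand: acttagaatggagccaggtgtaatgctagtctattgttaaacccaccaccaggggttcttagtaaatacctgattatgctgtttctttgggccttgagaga

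The pileup chose the members, so these values are a description. Summit pileups of the 1025 members ran from 35 to 122 fragments, with a median of 41 and quartiles of 37 and 48. Their median fold enrichment over the local background was 10.6 (quartiles 8.62 and 12.6), against 16.1 for the 31701 shared KO peaks of pileup 35 or more and 4.87 for the 15514 weaker KO-only peaks. The members were thus among the weaker of the strong peaks: 420 had a pileup of 35 to 39, 224 of 40 to 44, 250 of 45 to 54, 106 of 55 to 69 and 25 of 70 or more. At the limit, 90 members had a pileup of 35 and a median fold enrichment of 9.23, and just outside it 126 KO-only peaks had a pileup of 34 and a median of 8.98. At 35, more than 3 members tied at the highest fold enrichment, 11.3. The first 3 of them by peak name had nearest protein-coding starts of *Rhbdf2*, *Gm11733* and *5730507C01Rik*. At 34, the first 3 in the same order had 11.0 each (*Fam49a*, *Gm21188* and *Neu4*).

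The share of KO peaks without a WT peak fell with pileup. It was 91.1% at pileups of 9 to 14, 23.2% at 30 to 34, 13.8% at 35 to 39, 4.83% at 45 to 54 and 0.171% at 70 or more. Over all autosomal KO peaks of pileup 35 or more it was 3.13% (1025 of 32726), and over all autosomal KO peaks 28.5%. The same rule with the lists exchanged found 2 WT peaks, 0.00853% of the 23448 autosomal WT peaks of pileup 35 or more. Both lay in high background: the peak at chr17:39845734-39845951 had a pileup of 226 over a background of 148, and the peak at chr5:135357624-135357901, in an intron near *Trim50*, had a pileup of 46 over a background of 23.0. The lists differ in signal as a whole. At 40937 sites with 1 peak in each list, the median ratio of KO to WT pileup was 1.36, and that of the backgrounds was 1.05. With KO pileups divided by that ratio, 268 members were left. The mirror count of 2 could not change there, since WT pileups and the WT limit stayed as they were. With the WT limit lowered by that ratio instead, which was chosen after seeing the data, 20 WT-only peaks were found.

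**Figure D1:**
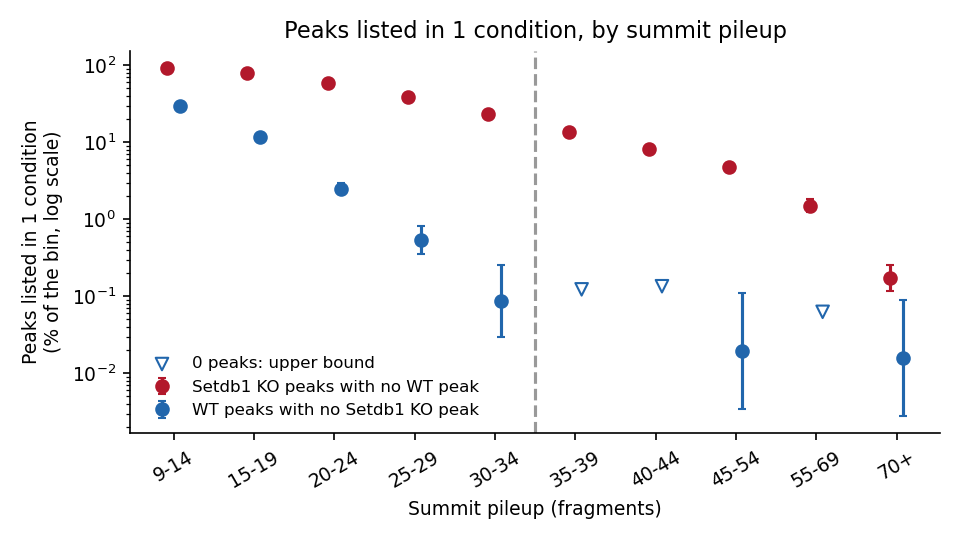
Percent of peaks in each bin of summit pileup (x axis, fragments) that were listed in 1 condition (y axis, log scale), for autosomal *Setdb1* KO peaks and WT peaks. Bars are Wilson 95% intervals, open triangles are the upper bound where the count was 0, and the dashed line is the limit of 35; to its right the KO share falls from 13.8% to 0.171% and the WT bins hold 2 peaks in all.

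For the sites that stayed in both lists, WT pileups can be given, although sites that left the WT list are missing from them by definition. The lowest pileup in the WT list was 9. At paired sites with a KO pileup of 35 to 39, the median WT pileup was 26, and 1 in 20 was at or below 16. At a KO pileup of 45 to 54 these values were 34 and 20, and at 70 or more they were 66 and 37. Of 31174 pairs with a KO pileup of 35 or more, 136 (0.436%) had a WT pileup under 15, and the highest ratio was 6.43.

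Among the 20 members with the highest pileup, 13 had a masked summit, 18 had a CTCF motif and 5 lay on chromosome 5. The peaks ranked first and second, at chr11:3191242-3191485 and chr11:3197335-3197614, lay within or close to *Sfi1*, which encodes a centrosomal protein. Their pileups of 122 and 105 stood over backgrounds of 78.3 and 47.8, so their fold enrichments were 1.55 and 2.17. Of all members, 24 had a fold enrichment under 5 and 11 a background over 10.

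The third peak by pileup covered the promoter of *Dpep3*, which encodes a membrane dipeptidase made mainly in testis. Its pileup was 97 and its fold enrichment 23.7, with the summit 0.0760 kb from the annotated start, 10 CpGs within 100 bp, and no WT peak within 3.48 kb. The fourth, with a pileup of 87 and a fold of 22.6, lay 23.3 kb from *Dppa3*, a maternal and germ cell factor that is also made in ESCs. The fifth, near *Gm48185*, had the same pileup of 87 but a fold enrichment of 5.68 over a background of 14.5, and held no motif.

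A peak with a pileup of 84 lay 21.1 kb from the start of *Castor2*, a gene of the mTORC1 pathway. An intron of *Flt1*, the gene of VEGF receptor 1, held a peak with a pileup of 79 and a fold of 22.2. Intronic sites nearest to *Arhgap27* and to *Zfp846* held peaks with pileups of 79 and 81. *Svil* (supervillin, an actin-binding protein) had a pileup of 78 and a fold of 24.8 at 0.413 kb from a start, with 11 CpGs. These values are from 1 library, and none of the sites was listed in WT.

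The other members of the 20 had pileups of 71 to 76. Their nearest protein-coding starts were those of *Mrps10* (mitochondrial ribosome), *Tbx19* (a T-box factor of the pituitary), *Dysf* (dysferlin, of muscle membrane repair), *Slc35g1*, *Selp* (P-selectin), *Lnx2*, *Tmem132b* (286 kb away), *Medag*, *Bfsp2* (a lens filament protein) and *Rbm20* (a cardiac splicing regulator). In 15 of the 20, the sequence belonged to the largest family described next.

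The members were rich in repeats. Soft-masked bases were the majority of those up to 50 bp from the summit in 646 of 1025 members, 63.0% (95% interval 60.0 to 65.9%). In shared KO peaks weighted to the same pileups the share was 29.0%, a difference of 34.1 percentage points (95% interval 31.0 to 37.1). It was 40.1% in the weaker KO-only peaks, 28.5% in control windows placed 1 kb leftwards of the members' own summits, and 17.7% in the 1412 WT-only peaks (3.26% of 43284 autosomal WT peaks). The excess over shared peaks was larger than counting error at every alternative tried. The authors kept only reads with a unique alignment, so copies of a repeat too alike to be told apart by a read gave no pileup in either list.

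When windows of 201 bp around the members' summits were aligned to each other, 809 of 1025 members (78.9%) matched at least 1 other member over 50 bp or more, and 216 matched none. A single family held 683 members, 66.6% of all, and its most connected window matched 501 others. Families join windows through chains of matches, so members of a family need not match each other or be the same kind of repeat. The representative, near *Mtus2*, reads as a SINE B2-type element from general knowledge of that repeat. No repeat annotation was used, so the families carry no assigned name. In this family, 84.6% of members had a masked summit, 81.8% a CTCF motif and 39.1% a B box, with a median pileup of 42.

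The representative was then aligned to all autosomal KO peaks, so that members and other peaks could be compared by 1 measure. It matched 514 members (50.1%, 95% interval 47.1 to 53.2%) and 20.2% of shared peaks at the same pileups, a difference of 29.9 percentage points (26.8 to 33.1). It matched 25.6% of the weaker KO-only peaks, 8.36% of WT-only peaks and 1.76% of the control windows. The representative was picked among the members, which favours them. A representative picked among shared peaks instead, after seeing the data, matched 37.9% of members, with a difference of 22.9 points to shared peaks. The excess of masked summits was not limited to copies that the first representative matched. Among members that it did not match, 33.9% were masked, against 14.1% of such shared peaks (difference 19.8 points, 15.6 to 24.0). Part of the family of 683 is among those members, so the excess outside the family was not measured.

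**Figure D2:**
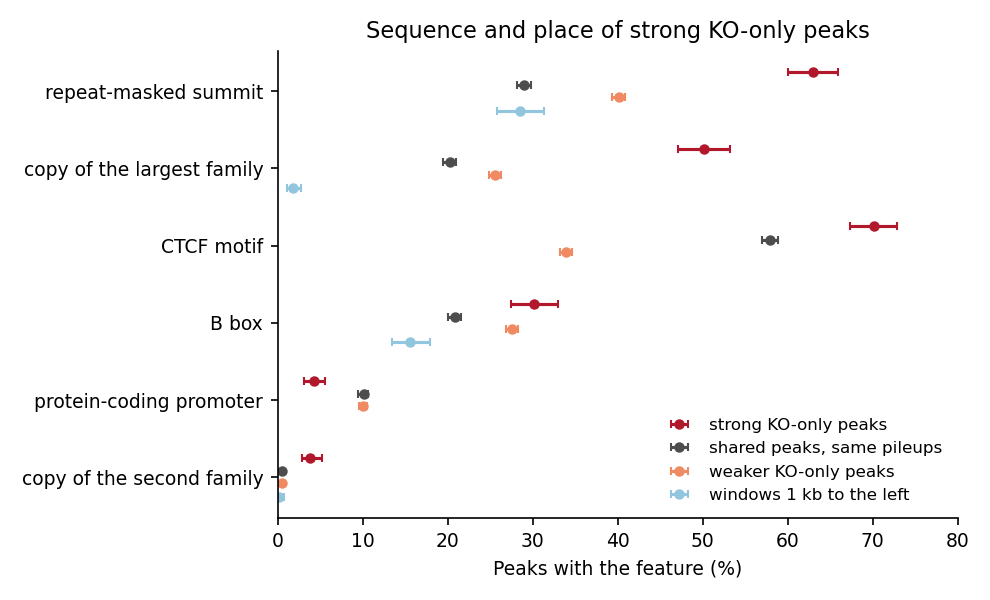
Percent of peaks (x axis) with each feature (y axis) among strong KO-only peaks, shared KO peaks weighted to the same pileups, weaker KO-only peaks, and control windows, 1 kb leftwards of the strong KO-only summits, where that was measured. Bars are 95% intervals; the strong KO-only peaks stand highest for masked summits (63.0%), copies of the largest family (50.1%) and the CTCF motif (70.1%) and lowest for protein-coding promoters (4.20%).

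The CTCF motif was present near the summit (50 bp or less) in 719 members, 70.1% (67.3 to 72.9%). By construction, 1% of the control windows hold it. Shared peaks at the same pileups held it in 57.9%, 12.2 percentage points fewer (9.28 to 15.2). Without the weighting the direction turned, since 73.3% of all shared peaks of pileup 35 or more, whose median pileup was 67, held it. The share was 33.9% in weaker KO-only peaks. The motif's centre lay a median of 14.0 bp from the summit in members and 13.0 bp in shared peaks. The B box, the internal promoter of tRNA-derived repeats (GGTTC, any base, A, any 2 bases, then CC, on either strand within 100 bp, at most 1 mismatch), was found in 30.1% of members, 20.8% of shared peaks at the same pileups and 15.5% of control windows. The weaker KO-only peaks held the B box in 27.6% (26.9 to 28.3%), which overlaps the members' interval of 27.4 to 33.0%. Without mismatch it was found in 2.63% of members, 1.59% of the weighted shared peaks and 1.37% of the weaker KO-only peaks.

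Within copies of the largest family, the motif sat at a fixed place. Of the 514 copies among members, 424 had a motif, and in 402 of these (94.8%) its middle base aligned to that of the representative within 1 bp. Shared copies were alike in this respect: 94.4% of their motifs were at that place. The share of copies with a motif was 82.5% in members and 81.0% in shared copies at the same pileups, and the difference of 1.49 points was within its error (-2.21 to 5.19). A motif at the fixed place was found in 78.2% of member copies and 74.1% of the weighted shared copies, a difference of 4.11 points (0.0738 to 8.14). Among peaks that were no copy, the motif shares were 57.7% and 51.5% (difference 6.25 points, 1.82 to 10.7). All of these turned without the weighting, with 88.4%, 83.5% and 69.8% in shared peaks. In weaker KO-only copies the motif share was 68.9%.

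The letters at that place varied between strong and weak copies. The most frequent word among 396 member copies compared by word was GCCAGAAGAGGGCAT, with 94 copies (23.7%), against 17.2% of shared copies, not weighted by pileup, and 13.9% of weaker KO-only copies. ACCAGAAGAGGGCAT, which has another letter at motif position 1, made up 6.06% of member copies, 3.59% of shared copies and 19.6% of weaker KO-only copies. Over all words, position 1 was a G in 73.4% of member copies (68.9 to 77.5%), 67.0% of shared copies at the same pileups (difference 6.43 points, 1.55 to 11.3) and 38.3% of weaker KO-only copies (36.4 to 40.3%). In shared copies without the weighting it was 75.4%, above the members. In the matrix, position 1 was a G in a fraction of 0.583 of the windows it was learned from.

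Outside the largest family, members differed in kind. The second family held 61 members with a median pileup of 43 and a highest of 84, among them the peak near *Castor2* and peaks in *Caln1*. Of its summits, 11 were soft-masked, so the masked share above does not count most of its members as repeats. Its motif was called in 55.7%, and 10 of the 61 lay on chromosome 5 beyond 110 Mb. Its representative matched 3.80% of members and 0.455% of shared peaks at the same pileups, a difference of 3.35 points (2.17 to 4.53), and 0.490% of the weaker KO-only peaks. This representative too was picked among the members.

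The third family held 18 members, of which 17 were masked and none had a called motif, with a median pileup of 38. Its representative matched 1.66% of members and 1.17% of shared peaks at the same pileups, and the difference of 0.490 points was within its error (-0.325 to 1.30). The smaller families held 47 members. Of the 216 members with no related member, 7.41% were masked, 49.1% had a motif and 9.26% lay at a protein-coding promoter, and their highest pileup, 97, was that of *Dpep3*.

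Members were poor in CpG. Within 100 bp of the summit the median GC content was 45.3% in members and 48.3% in shared peaks of pileup 35 or more, and the median CpG count was 1 and 2. No CpG was present in 221 members (21.6%) and in 12.1% of the shared peaks, and 10 or more were present in 6 members (0.585%) and in 5.96% of the shared peaks. In the weaker KO-only peaks, 18.9% had no CpG and 4.80% had 10 or more. These medians and shares are not weighted by pileup. Within the motif, a CG at positions 13 and 14 was found in 256 of 719 members with a motif (35.6%, 32.2 to 39.2%), in 30.2% of shared peaks at the same pileups (difference 5.41 points, 1.73 to 9.08) and in 28.4% of weaker KO-only peaks. Without the weighting it was found in 9290 of 23230 shared peaks with a motif, a higher share than in members. A CG at positions 3 and 4 was rare in members, 0.834% against 3.28% in the weighted shared peaks (difference -2.44 points, -3.24 to -1.64). DNA methylation was not analysed here.

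Members lay away from promoters. Their summits were intergenic in 500 cases (48.8%), intronic in 435 (42.4%), within 1 kb of an annotated start in 65 (6.34%) and exonic in 25 (2.44%). Shared peaks at the same pileups were intergenic in 39.8% and at a start in 13.9%, so members were 8.98 points higher in the former (5.78 to 12.2), and in the latter the difference was -7.57 points (-9.20 to -5.93). Introns held similar shares, 42.4% and 42.0%, with an interval of the difference of -2.69 to 3.65 points. The median distance to a protein-coding start was 23.8 kb in members and 13.2 kb in shared peaks of pileup 35 or more.

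Starts of protein-coding genes were within 1 kb of 43 members, 4.20% against 10.1% of the weighted shared peaks. Of these 43, 20 had a masked summit (46.5%, 32.5 to 61.1%), whereas 10.9% of the 3114 shared peaks at such promoters did. Their median CpG count was 2, against 6 at shared promoter peaks, and 5 of the 43 had 10 or more, against 1079 of 3114. The 3114 shared promoter peaks were not weighted by pileup, and their median pileup was 69, against 39 in the 43 members. The CTCF motif was called in 27 of the 43 (62.8%, 47.9 to 75.6%).

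After *Dpep3* and *Svil*, the promoter members of highest pileup were those of *Cfap69*, a protein of cilia and flagella, with a pileup of 57, and *Prom1*, which encodes the surface protein CD133, with 50. *Apmap* (49), *Pacsin2* (48), a membrane-bending protein, *Piezo1* (47), a mechanosensitive ion channel, and *Tbc1d1* (46), a Rab GTPase-activating protein of glucose uptake, came next. *Svopl* (44), *Gm13420* (43) and *Mast1* (43), a microtubule-associated kinase, followed. *Intu* (41), a ciliogenesis protein, *Hmcn1* (40) and *Rpain* (40) came last of those named. At *Piezo1* the summit was 179 bp from a start and lay in a masked copy of the largest family, while at *Mast1* it was 81 bp from a start with no masked majority and 18 CpGs. Fold enrichments of these promoter members ran from 6.31 at *Pacsin2* to 24.8 at *Svil*.

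Few genes had a member nearby. Of 20807 autosomal protein-coding genes, 649 (3.12%) had a member within the gene or 10 kb of it, and 401 had one inside the gene. In 36 genes there were 2 or more, and in 7 there were 3 or more. *Caln1*, which encodes a neuronal calcium-binding protein, and *Mtus2*, which encodes a microtubule-associated protein, had 6 members each. *Gm20388* had 5, but its annotated model runs over 4435 kb and covers other genes. *Maml3* (a Notch coactivator), *Map4k3* (a kinase of amino acid signalling), *Tacr1* (the substance P receptor) and *Unc13c* (a factor of synaptic vesicle release) had 3 each. Pileups in *Map4k3* were 66, 60 and 36, and in *Tacr1* they were 66, 46 and 54.

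The lists of genes were chosen with earlier results of these data known, so their counts are descriptions, to be read beside the 3.12% of all genes with a member within 10 kb and the 7.62% within 50 kb. At 3.12%, a list of this size holds less than 1 such gene. None of 24 autosomal genes of naive and core pluripotency, 15 genes of the 2-cell stage, 25 genes of the H3K9 methylation machinery or 16 of CTCF and cohesin had a member within 10 kb, and within 50 kb 1, 2, 1 and 2 of them did. Of 23 germline genes silenced in ESCs, *Dpep3* alone did. Of 27 imprinted genes *Ube3a* did, with a pileup of 37 in a masked copy of the largest family 17.0 kb into the gene, 475 kb from the nearest WT peak. Of 25 genes of trophectoderm and placenta *Fgfr2* did.

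Of 25 genes of VEGF and FGF signalling, 4 had a member (16.0%): *Flt1*, *Fgf8*, *Fgfr4* and *Fgfr2*. The *Fgf8* peak, with a pileup of 37, lay 9.71 kb upstream of the start, and the *Fgfr4* peak, with 47, lay beyond the gene's end. The *Fgfr2* peaks, with pileups of 68 and 36, lay 2758 and 1691 kb from the annotated start of a gene model long enough to cover other genes, and the second was 0.412 kb from the start of *Acadsb*, a mitochondrial dehydrogenase. Of 26 cadherin genes 3 (11.5%) had members in the gene, *Dsg3* (pileup 70), a desmosomal cadherin, *Cdh13* (41) and *Pcdh15* (48 and 47).

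Of 30 neuronal channel and receptor genes, *Cacna1a* (43 and 38) and *Grin2b* (53) did (6.67%). Of 19 genes of nervous system adhesion and autism, 6 did (31.6%), and *Caln1*, *Auts2* (38), *Tmem132b* (47) and *Tmem132d* (41 and 39) are on chromosome 5, with *Nlgn1* (37) and *Csmd1* (48) elsewhere. Of 27 genes of actin, sarcomere and muscle, 5 did (18.5%): *Svil*, *Myom3* (69), *Mybpc1* (35), *Ryr2* (40 and 51) and *Ldb3* (45). The length of the genes was not taken into account in these counts.

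Distance to the WT list is part of the rule, so it is a description. The median gap from a member to the nearest WT peak was 12.9 kb, with quartiles of 4.85 and 34.5 kb. The gap was under 1 kb for 52 members (5.07%), under 10 kb for 432 (42.1%) and under 100 kb for 952 (92.9%), and it was 100 kb or more for 73. For shared peaks of pileup 35 or more, measured to the nearest WT peak they did not overlap, the median was 8.90 kb, and for weaker KO-only peaks it was 11.4 kb.

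The 3 members closest to a WT peak lay 113 bp from it at chr19:33861086-33861503, 131 bp at chr3:145619622-145619948 near *Znhit6*, and 194 bp at chr4:46207679-46208156 near *Xpa*. The first was intronic, and its nearest annotated start, 10.9 kb away, was that of *AC098875.1*. The pileups of these 3 members were 37, 47 and 52. The farthest were at chr7:21069747-21070100, 1005 kb away near the vomeronasal receptor gene *Vmn1r120*, at chr4:38507162-38507599, 976 kb away, and at chr9:80943046-80943369, 557 kb away and nearest to *Impg1*. Their pileups were 36, 52 and 49, all had a CTCF motif, and none had a related member. Where the member and its nearest WT peak both had a motif (419 pairs), the motifs faced each other in 22.0% (18.3 to 26.2%), pointed apart in 24.3% and pointed the same way in 53.7%. For shared peaks these shares were 20.0%, 26.9% and 53.1%.

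**Figure D3:**
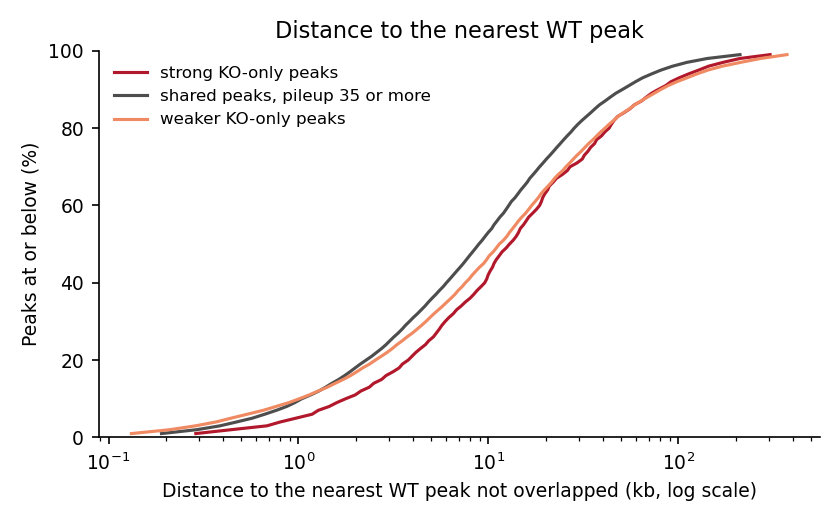
Cumulative percent of peaks (y axis) at or below a distance to the nearest WT peak that they do not overlap (x axis, kb, log scale, percentiles 1 to 99), for strong KO-only peaks, shared KO peaks of pileup 35 or more and weaker KO-only peaks. The medians are 12.9, 8.90 and 11.4 kb.

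Members were spread over every autosome, with more on chromosome 5. It held 126 of the 1025, or 4.63 per 100 KO peaks of pileup 35 or more (3.90 to 5.49), against 3.13 over all autosomes. Chromosome 8 held 85 (4.08, 3.31 to 5.02) and chromosome 13 held 52 (4.00, 3.07 to 5.21), and the lowest values were 2.04 on chromosome 7 and 2.06 on chromosome 14. Beyond 110 Mb chromosome 5 held 81 members, 7.90% of all, at 4.86 per 100, and before 110 Mb 45 members at 4.27 per 100. Beyond 110 Mb the median ratio of KO to WT pileup at shared sites with a KO pileup of 35 or more was 1.45, against 1.39 over all autosomes, with a background ratio of 1.07 against 1.05. On chromosome 8 these ratios were 1.40 and 1.09. The distal part of chromosome 5 was chosen with earlier results of these data known, so its values are a description. Copy number was not tested.

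**Figure D4:**
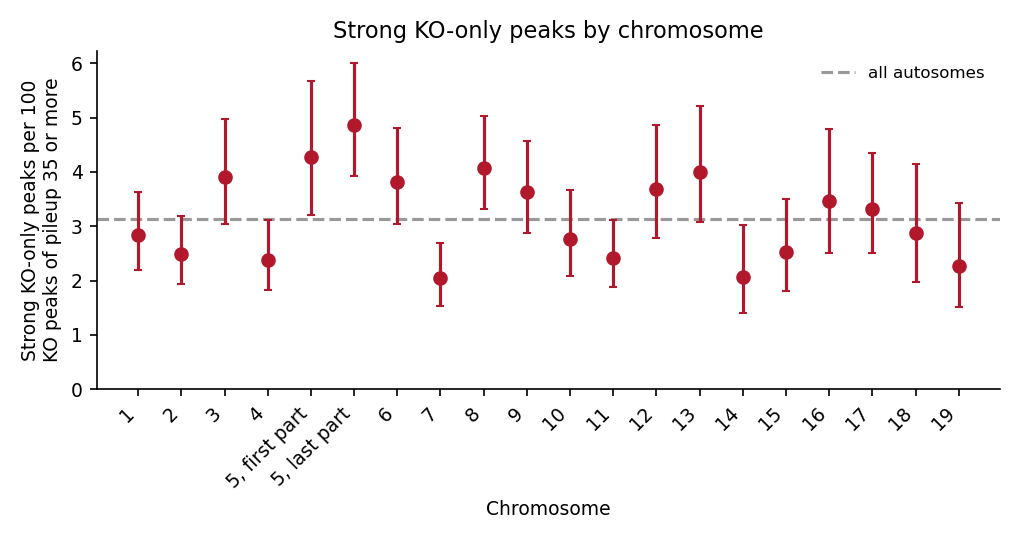
Strong KO-only peaks per 100 *Setdb1* KO peaks of pileup 35 or more (y axis) on each autosome (x axis), with Wilson 95% intervals and the value over all autosomes (3.13) as a dashed line. Chromosome 5 is drawn in its first part, up to 110 Mb (4.27), and its last part beyond it (4.86), and chromosomes 7 and 14 lie lowest.

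In windows of 10 Mb the median count was 3, and the highest was 33 on chromosome 5 at 140 to 150 Mb, or 7.60 per 100 KO peaks of pileup 35 or more, where the ratio at shared sites was 1.55 and that of the backgrounds 1.09. The next by count were chromosome 5 at 130 to 140 Mb with 18 members (4.96 per 100), chromosome 17 at 40 to 50 Mb with 17 (6.44) and chromosome 5 at 120 to 130 Mb with 17 (3.79). Chromosome 6 at 140 to 150 Mb held 12 members, at 7.23 per 100. Of the 257 windows, 25 held none. Of the members, 31 (3.02%) had another within 10 kb, and 110 (10.7%) within 50 kb. These shares were not compared with those of other peaks or of an even scatter. The groups of 4 or more linked by gaps of up to 50 kb were all on chromosome 5, with 5 members over 94.9 kb at *Mtus2*, 4 over 69.2 kb near *Castor2* and 4 over 47.9 kb between *Flt1* and *Pomp*.

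At *Caln1* the 6 members had pileups of 38, 66, 68, 71, 53 and 69 in order along the gene and its 10 kb flanks, and all 6 had a motif. Other peaks and ratios at *Caln1* and *Mtus2* were counted over wider flanks, of 20 kb. The *Caln1* members stood among 21 shared KO peaks with a median pileup of 65, and 22 WT peaks with a median of 28. At *Mtus2* the 6 members had pileups of 52, 63, 38, 46, 44 and 60, all belonged to the largest family and all had a motif. The shared KO peaks there had a median pileup of 72 and the WT peaks a median of 35. The median ratio at paired sites was 1.56 at *Caln1* (20 of 21 above 1) and 1.58 at *Mtus2* (33 of 34 above 1), beside 1.36 over all autosomal pairs. Whether these genes differ from the rest in that ratio was not tested.

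**Figure D5:**
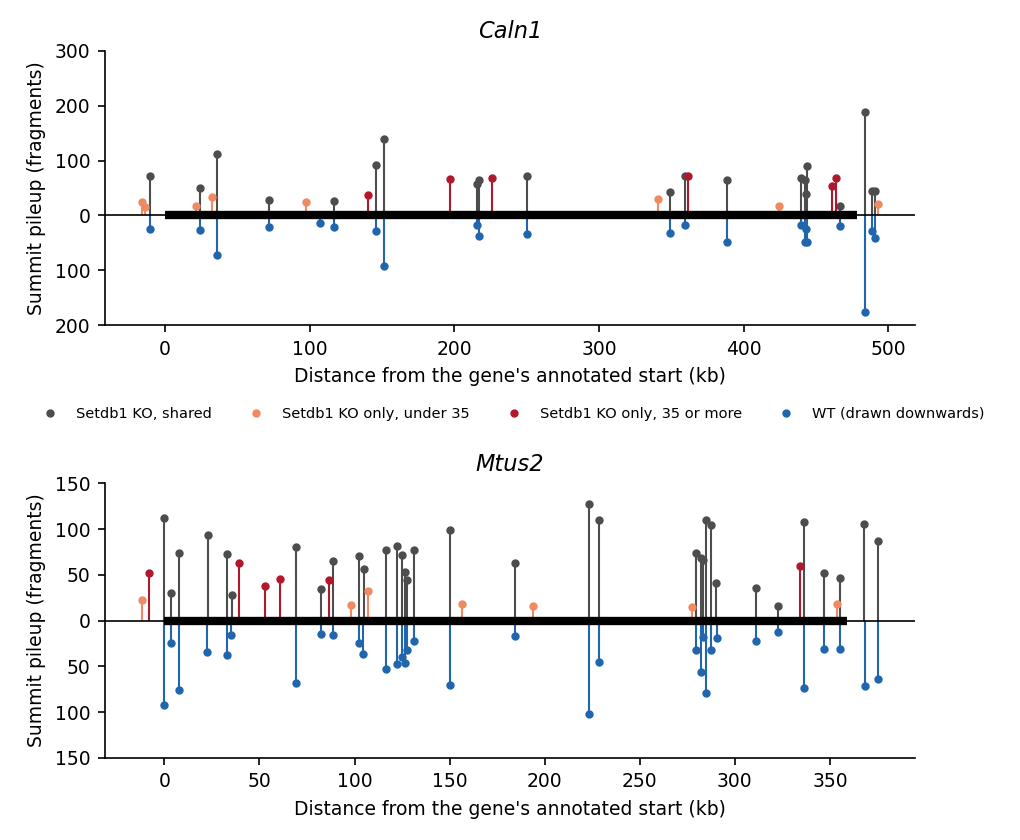
Summit pileup (y axis, fragments) of peaks at *Caln1* and *Mtus2* against the distance from the gene's annotated start (x axis, kb), with KO peaks drawn upwards, WT peaks downwards and the gene as a black bar. The 6 strong KO-only peaks at each gene (red, 38 to 71 and 38 to 63) stand with shared sites around them, except that the first at *Mtus2*, upstream of the start, has no shared site to its left.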

How the data were processed

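CTCF ChIP-seq peak lists of WT and *Setdb1* KO ESCs were analysed, 1 library each. According to the submitters' processing notes and the methods, the tools were Bowtie 1.2 for alignment (build mm10, GRCm38, reads with several matches discarded), Picard, and MACS2 2.1.0 for calling peaks in each sample. In the deposited lists, the fold enrichment is a ratio of pileup to background, each with a pseudocount of 1 added by the authors. Deposited p and q were on a -log10 scale. The score that the authors deposited is 10 times -log10 q, and the other deposited column is the summit's offset in bp. Total read counts are not given in the lists, so depth is unknown.

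Pileup and background were solved from fold and p for 100% of peaks in both lists (tolerance 0.001). Shared peaks of pileup 35 or more were weighted to the members' pileups in 5 bins (35 to 39, 40 to 44, 45 to 54, 55 to 69, 70 and more), and the difference of shares was given with its 95% interval; other intervals are Wilson's, and both cover counting error only. Genes came from GENCODE vM21, and sequence and soft-masking from RefSeq GRCm38.p6. Families are connected groups of 201 bp windows aligned by BLASTN 2.17.0 (E-value limit 1e-8 at a fixed database size of 200000 bases, 50 bp or more). The versions were networkx 3.6.1, scipy 1.17.1, pandas 2.3.3, numpy 2.4.6 and Python 3.11.15. The motif learning, the solving of pileups, the overlaps and the gaps between peaks were tested on simulated data. Named genes were the 20 members of highest pileup, the 15 highest at protein-coding promoters, genes with 3 or more members, listed genes with a member within 10 kb, the 3 closest to and 3 farthest from a WT peak, peaks at pileups of 35 and 34, and WT-only peaks. Members and lists were chosen with earlier results of these data known. One gene named by these rules is not reported here. Other assays, cell lines and second libraries of the series were not analysed here.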

Additional observations from a re-analysis of the deposited data

How the results depend on the processing

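All 53 recomputed differences between members and shared peaks of the same pileup (promoters, masked summits, CTCF motif, B box, copies of the largest family) kept their direction, with an interval that did not include 0, though their size moved: from 22.1 to 46.9 percentage points for masked summits, -11.9 to -4.11 for promoters, 4.59 to 13.3 for the motif, 1.04 to 15.3 for the B box and 22.9 to 36.4 for copies of the family. The shares and counts moved as follows. With pileup limits of 30, 40 and 50 there were 1850, 605 and 218 members, and with KO pileups divided by the shared ratio 268. With 30 and 50, the mirror count was 5 and 1, masked summits 59.6% and 72.9%, and distal chromosome 5 held 6.16% and 12.8%. The motif share was 63.9%, 75.9% and 82.1% at 30, 40 and 50. At 50, 4.59% had a member within 10 kb. With scaled pileups, masked summits were 71.6%, motifs 79.1%, B boxes 35.1%, distal chromosome 5 11.6% and clustered members 4.85%. When only a reciprocal overlap of 50% counted, 3223 KO and 1226 WT peaks were unshared, the median distance to a WT peak not overlapped was 9.13 kb, and the shares were 9.59% at promoters, 47.3% masked, 73.8% with a motif, 24.6% with a B box and 9.59% clustered. With no WT summit within 100 bp, 227 WT peaks met the rule, and 8.13% of KO members were at promoters and 58.9% masked. With no WT peak within 1 kb the mirror count was 1, without distal chromosome 5 it was 1, with -log10 q of at least 10 it was 0, and with the WT limit divided by the shared ratio, added after seeing the data, it was 20. Without distal chromosome 5, 2.12% were clustered. Promoters were 3.02% at 500 bp, 26.5% at 5 kb and 4.20% for protein-coding genes. Masked summits were 84.9% for any masked base and 44.2% for most of the peak. The motif share was 89.2% at the 95th percentile, 14.7% at the strictest percentile tried and 77.2% within 100 bp. B boxes were 2.63% without mismatch and 14.9% within 50 bp. Clustered members were 10.7% within 50 kb, and 401 and 1585 genes had a member inside the gene and within 50 kb. Also added after seeing the data, copies of the largest family were 37.9% with the other representative and 56.9% at a limit of 50. A further 55 recomputed shares and counts moved less than their interval or by less than 1.5 times. No paired analysis was possible because 1 CTCF library per condition was analysed, and for the same reason no replicate could be left out.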

Other observations

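The rule left out the sex chromosomes. On chromosome X, 11 KO-only peaks had a pileup of 35 or more, 2.55% of 432 such KO peaks, against 3.13% on the autosomes. On chromosome Y there were 15 KO peaks of that pileup and all were shared.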
